A study of Mus musculus with 24 samples.

Results

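The creatine kinase and adenylate buffering genes of plantaris muscle were examined as 10 genes chosen by symbol: Ckm, Ckmt2, Ckb, Slc6a8, Gamt, Gatm, Ak1, Ampd1, Ampd3 and Adssl1. All 10 were found among the 47643 genes of the count table, and 9 of them had enough reads to be tested, the exception being Gatm. The samples were plantaris, a hindlimb muscle, from wild type C57BL/6 mice that breathed normal air (11 samples) or had been exposed to tobacco smoke for 16 weeks (13 samples). The labels used here give no age and do not say whether each sample was a separate mouse, so p-values measure only the spread between these samples, which may be technical. Sheet numbers in the file headers ran separately for the 2 groups, and an effect of sheet order and one of smoke cannot be told apart. The tissue was whole muscle, in which fewer cells of a type and less RNA per cell cannot be told apart.

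Muscle contraction draws on ATP faster than mitochondria and glycolysis can refill it, and creatine kinase bridges the gap by moving a phosphate from phosphocreatine to ADP. The cytosolic enzymes work at the myofibril and the calcium pump, while the mitochondrial enzyme sits where new ATP leaves the mitochondrion and charges creatine again. Adenylate kinase makes ATP and AMP from ADP, AMP deaminase turns the AMP into IMP, and adenylosuccinate synthetase starts the return from IMP to AMP in what is called the purine nucleotide cycle. Creatine itself is made by Gatm and then Gamt, mostly outside muscle, and enters the fibre through the transporter Slc6a8.

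The libraries held 2515697 to 4528845 counted reads each. The 12 markers of skeletal muscle fibres all had enough reads to be tested, at a summed 194154 to 298809 CPM in air and 204498 to 259082 CPM in smoke, where CPM is a gene's read count scaled to 1 total shared by all libraries. The 8 slow fibre markers summed to 408 to 802 CPM in air and 345 to 737 CPM in smoke, and 0 genes of either list were called by edgeR. At an unadjusted p under 0.05 there were 1 of the 12 skeletal fibre markers and 3 of the 8 slow fibre markers. These 3 were Myl2, Myl3 and Atp2a2, with log2 values of -0.46, -0.29 and -0.35. Over the 8 slow fibre markers 4 log2 values were positive and 4 negative, with a median of 0.01. Tnnc1 was at 0.59, Tnni1 at 0.43 and Myh7 at 0.15. No marker was called among those of smooth muscle (4 of 6 tested), endothelium (6 of 6), adipocytes (6 of 6), fibroblasts (5 of 5) or macrophages (3 of 5) by edgeR, and 1, 2, 2, 2 and 0 of them had an unadjusted p under 0.05. These lists do not cover every cell type that whole muscle holds, and they do not show that its cell makeup was the same in both groups. Along the first principal component of all tested genes, which held 14.8% of the variance, the air sample of replicate 11 (at 38.7) and the smoke sample of replicate 10 (at 29.0) lay farthest out, and the other 22 samples lay between -17.9 and 17.6. Both are used below, and values without them are given for Ckm, Ckmt2, their ratio, Slc6a8 and the relations between genes.

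Over all genes, 10159 were tested and 195 were called, which is 1.92% of them. A gene was called where the Benjamini-Hochberg adjusted p of the edgeR quasi-likelihood test was under 0.05. Of the 9 tested creatine kinase and adenylate genes, 0 were called. At an unadjusted p under 0.05 there were 3 of 9 (Ckmt2, Ampd1 and Ampd3, all with lower values in smoke), against 15.5% of all tested genes, and DESeq2 and limma voom also called 0 of the 9. The groups overlapped for all 10 genes, and over all tested genes the groups did not overlap for 0.0295%. The log2 fold change of smoke against air was negative for 7 of the 9 and positive for 2, with a median of -0.04, against a median of 0.01 over all tested genes, 48.4% of which were negative.

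**Figure D1:**
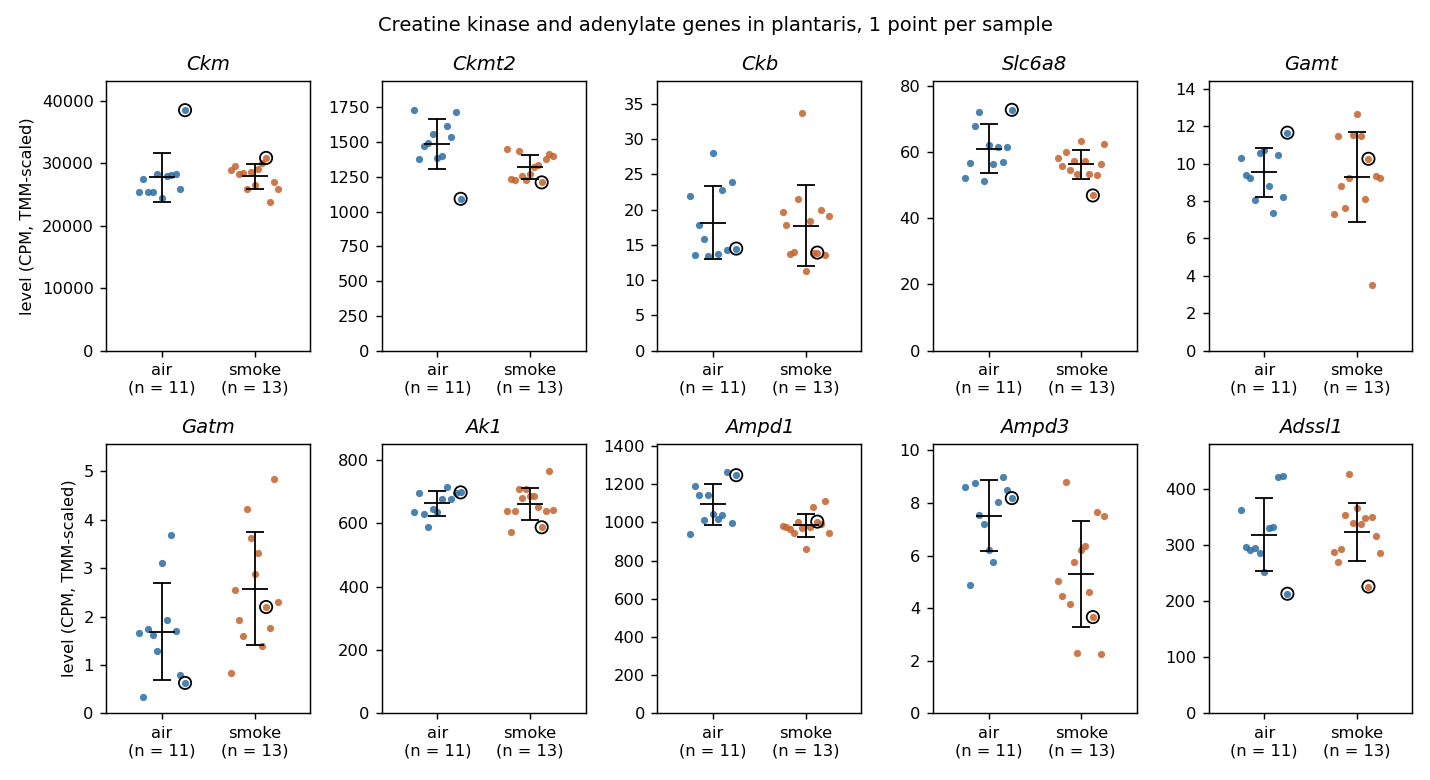
Level of each of the 10 genes (y axis, CPM, linear and starting at 0) in the 11 air and 13 smoke samples (x axis). Points are samples, horizontal marks and bars are mean and SD, and open rings mark air replicate 11 and smoke replicate 10. The groups overlap for every gene, and air replicate 11 is the highest sample for Ckm at 38460 CPM and the lowest for Ckmt2 at 1091 CPM.

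The 3 creatine kinase genes differed in level by orders of magnitude in the same libraries, and the stretch of DNA before each start is shown for that contrast. Of the 10 genes, 8 had an entry in the RefSeq promoter table. The sequences are the 250 bases ahead of a RefSeq start (GRCm38.p6), 5′ to 3′ on the gene's strand, for Ckm (chr7:19410844-19411093, plus strand), Ckmt2 (chr13:91876886-91877135, minus strand) and Ckb (chr12:111672339-111672588, minus strand). Capitals mark E-boxes, the letters CANNTG bound by the myogenic basic helix-loop-helix factors, and matches to the MEF2 consensus, both searched on both strands.
Ckm: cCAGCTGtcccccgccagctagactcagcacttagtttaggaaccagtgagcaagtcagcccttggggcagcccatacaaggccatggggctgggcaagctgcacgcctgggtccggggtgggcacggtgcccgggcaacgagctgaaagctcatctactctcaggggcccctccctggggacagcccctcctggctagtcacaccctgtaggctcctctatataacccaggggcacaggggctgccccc
Ckmt2: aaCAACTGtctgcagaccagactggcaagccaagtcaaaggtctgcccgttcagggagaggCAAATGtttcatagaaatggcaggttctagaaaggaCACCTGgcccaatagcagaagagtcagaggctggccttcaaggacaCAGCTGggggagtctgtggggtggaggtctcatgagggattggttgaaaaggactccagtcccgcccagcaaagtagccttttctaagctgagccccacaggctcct
Ckb: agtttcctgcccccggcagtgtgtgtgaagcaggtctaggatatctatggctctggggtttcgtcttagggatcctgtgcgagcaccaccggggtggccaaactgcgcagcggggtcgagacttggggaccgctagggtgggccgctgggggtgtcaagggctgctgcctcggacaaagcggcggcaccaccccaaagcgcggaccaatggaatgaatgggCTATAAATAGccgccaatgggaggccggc
The Ckm window held 1 E-box, of the form CAGCTG, and the Ckmt2 window held 4, of which 1 was CAGCTG. The Ckb window held 0 E-boxes and 1 MEF2 match, whose letters also contain TATAAA. Of all 32851 promoter windows of this length, 66.2% held an E-box, 13% held CAGCTG, 12.4% held TATAAA and 2.92% held a MEF2 match. These matches describe the letters in the windows, and no binding was measured.

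Ckm, the cytosolic muscle creatine kinase, ranked 6th in abundance among the tested genes and took 2.42% to 3.28% of all reads in the air samples and 2.44% to 2.91% in the smoke samples. In air its level was 25321, 27435, 25340, 25369, 28266, 24354, 27944, 28125, 28237, 25865 and 38460 CPM in replicates 1 to 11. In smoke it was lowest at 23733, had a median of 28392 and was highest at 30826 CPM. Air replicate 11 stood alone above every other sample, and the remaining smoke and air values overlapped widely.
The means were 27701 ± 3846 CPM (SD, n = 11) for air and 27871 ± 1985 CPM (SD, n = 13) for smoke. Smoke against air gave 0.01 on the log2 scale (SE 0.059, edgeR adjusted p = 0.968), and its 95% interval ran from -0.11 to 0.13, which is a difference between -7.35% and 9.26%. Without air replicate 11 the log2 fold change was 0.06 (edgeR adjusted p = 0.536), and without both outlying libraries the air SD was 1513 CPM and the coefficient of variation 5.68%, in place of 13.9%.

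Ckmt2, the sarcomeric mitochondrial creatine kinase, was lower in smoke by a margin that missed the threshold with all samples and passed it when 1 air sample was left out. In air its level was 1730, 1376, 1469, 1494, 1557, 1385, 1396, 1611, 1539, 1715 and 1091 CPM in replicates 1 to 11. In smoke it was 1451, 1231, 1229, 1432, 1254, 1226, 1271, 1317, 1331, 1209, 1375, 1412 and 1398 CPM in replicates 1 to 13. All 13 smoke samples were below the air mean, yet the lowest sample of all was air replicate 11, so the groups overlapped.
The means were 1487 ± 179 CPM (SD, n = 11) for air and 1318 ± 87.3 CPM (SD, n = 13) for smoke, and the fitted log2 change was -0.17 (SE 0.057, 95% interval -0.29 to -0.06, edgeR adjusted p = 0.102). Without air replicate 11 the log2 fold change was -0.22 and the edgeR adjusted p was 0.00857. With air replicate 11 and smoke replicate 10 both left out, a choice made after their values were seen, they were -0.20 and 0.0188. Leaving out any other single sample gave no call, and air replicate 10 gave the highest adjusted p, 0.171.
With an index of clock genes as a covariate the estimate for Ckmt2 was -0.08 (SE 0.081, edgeR adjusted p = 0.729). The index correlated with the group at r 0.73, so its part and that of smoke cannot be told apart in this fit. The index was the mean log2 level of Dbp, Per3, Nr1d2, Tef and Hlf minus that of Nfil3 and Arntl. Of these, Dbp, Per3 and Nr1d2 were called higher in smoke and Nfil3 lower. Tef, Hlf and Arntl were not called (edgeR adjusted p = 0.814, 0.956 and 0.480). A wider list of 13 clock genes had 11 tested, with 3 called higher and 1 lower, the same genes. That list summed to 413 to 585 CPM in air and 429 to 639 CPM in smoke. The part of clock genes in the Ckmt2 result was not tested.

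Reads of the mitochondrial kinase per 100 reads of the cytosolic one put these values on one scale within each library. This ratio of Ckmt2 to Ckm was 5.49 ± 1.05 (SD, n = 11) for air and 4.76 ± 0.537 (SD, n = 13) for smoke. It ranged from 2.84 to 6.83 in air, with a median of 5.69, and from 3.92 to 5.79 in smoke, with a median of 4.80. The lowest ratio in each group belonged to the sample that lay farthest out on the first principal component. Without these 2 samples the ratio was 5.75 ± 0.599 (SD, n = 10) for air, from 5.00 to 6.83, and 4.83 ± 0.495 (SD, n = 12) for smoke, from 4.17 to 5.79.

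Ckb, the brain-type cytosolic kinase that is abundant in nervous tissue and smooth muscle, was a minor transcript here, with 0.675 ± 0.239 reads per 1000 Ckm reads for air and 0.641 ± 0.215 for smoke (SD, n = 11 and 13). Reads of the kit come from the 3′ end of a transcript, so no division by transcript length was made for this ratio. Its level was 13.4 to 28 CPM in air (median 15.9) and 11.3 to 33.6 CPM in smoke (median 17.9), and its highest and lowest samples were both in the smoke group. For Ckb the fitted log2 change was -0.04 (SE 0.15, 95% interval -0.34 to 0.26, edgeR adjusted p = 0.939), an interval that reaches from -21.0% to 20.1%.
Ckb varied more between samples than genes of like abundance. Its biological coefficient of variation, the spread left after counting error, was 22.4%, against a median of 14.1% over the 200 tested genes nearest to it in level, and 191 of those 200 had a smaller one.

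Slc6a8, which carries creatine into the cell, was at 51.2 to 72.7 CPM in air (median 61.4) and 46.9 to 63.4 CPM in smoke (median 56.4). The groups overlapped, and 11 of the 13 smoke values lay under the air mean of 61.0 ± 7.34 CPM (SD, n = 11). The smoke mean was 56.3 ± 4.34 CPM (SD, n = 13), and the fitted log2 change was -0.11 (SE 0.064, 95% interval -0.24 to 0.02, edgeR adjusted p = 0.416). With a score of blood cell genes as a covariate the value was -0.23 (edgeR adjusted p = 0.138), and with the clock index it was -0.07 (edgeR adjusted p = 0.816). The blood score correlated with the group at r -0.56, so its part and that of smoke cannot be told apart in such a fit. Without both outlying libraries the log2 value of Slc6a8 was -0.07 (edgeR adjusted p = 0.671).

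The enzymes that make creatine were both scarce in this muscle. Gamt, which methylates guanidinoacetate to creatine, was at 7.38 to 11.6 CPM in air (median 9.39) and 3.52 to 12.6 CPM in smoke (median 9.24). The smoke range contained the air range, and smoke replicate 11 had the lowest value. Its log2 fold change was -0.04 (SE 0.14, 95% interval -0.31 to 0.24, edgeR adjusted p = 0.939), and with the clock index as a covariate it was -0.33 (edgeR adjusted p = 0.465).
Gatm, which makes guanidinoacetate from arginine and glycine, had only 1 to 11 reads per sample in air and 3 to 15 in smoke. A floor of 3 reads is 0.665 to 1.15 CPM in these libraries, and 3 of 11 air samples and 1 of 13 smoke samples were at or under it. The level was 0.348 to 3.69 CPM in air (median 1.67) and 0.842 to 4.84 CPM in smoke (median 2.31), with 10 of 13 smoke samples above the air mean and the ranges overlapping. On the log2(CPM + 1) scale, which understates changes of low genes, smoke exceeded air by 0.43 ± 0.21 (SE), with a two-sided permutation p = 0.0487 that is not adjusted for other genes. In the edgeR fit without an expression filter its adjusted p was 0.480.

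Ak1, the cytosolic adenylate kinase of muscle, was among the steadiest of these genes. Its level was 588 to 715 CPM in air (median 676) and 573 to 764 CPM in smoke (median 651), with means of 662 ± 38.5 CPM (SD, n = 11) and 661 ± 51.2 CPM (SD, n = 13). For Ak1 the fitted log2 change was -0.003 (SE 0.048, edgeR adjusted p = 0.987), with a 95% interval from -0.10 to 0.09, or -6.67% to 6.70%. The biological coefficient of variation was 8.44%, and 34 of the 200 tested genes nearest in level had a smaller one.

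Ampd1, the AMP deaminase of skeletal muscle fibres, was at 940 to 1263 CPM in air (median 1044) and 861 to 1110 CPM in smoke (median 976). The groups overlapped, and 12 of 13 smoke samples had a value under the air mean. The means were 1095 ± 108 CPM (SD, n = 11) for air and 985 ± 61.1 CPM (SD, n = 13) for smoke, and the fitted log2 change of -0.15 (SE 0.051, 95% interval -0.26 to -0.05) did not pass (edgeR adjusted p = 0.111). Over 24 fits that each left out 1 sample the edgeR adjusted p was between 0.0619 and 0.178, so that 0 of them called it. With the blood score as a covariate its log2 fold change was -0.09 (edgeR adjusted p = 0.567). Ampd1 encloses the annotated transcript Gm43063 on the same strand, to which 1681 reads were counted against 86096 for Ampd1.

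Ampd3, the AMP deaminase isoform of red blood cells, which muscle also expresses, had the largest fitted difference of the 9 and the fewest reads. In air its level was 8.61, 4.87, 8.75, 7.54, 7.20, 6.22, 5.77, 8.05, 8.98, 8.50 and 8.19 CPM in replicates 1 to 11. In smoke it was 5.05, 4.47, 8.81, 4.14, 5.77, 2.31, 6.21, 6.37, 4.63, 3.66, 7.64, 2.26 and 7.50 CPM in replicates 1 to 13. Of the 13 smoke samples, 6 lay below the lowest air sample and 0 above the highest, and the rest overlapped the air range.
The means were 7.52 ± 1.36 CPM (SD, n = 11) for air and 5.29 ± 2.01 CPM (SD, n = 13) for smoke, from 7 to 37 reads per sample. The fitted log2 change of Ampd3 was -0.49 (SE 0.17, 95% interval -0.84 to -0.14), and it did not pass (edgeR adjusted p = 0.130). Blood cell markers were lower in smoke as well: 3 of 5 were called lower (Hbb-bs, Hbb-bt and Hba-a2), at a summed 486 to 1444 CPM in air and 369 to 883 CPM in smoke. With the blood score as a covariate the log2 fold change of Ampd3 was -0.71 (SE 0.20, edgeR adjusted p = 0.102). With the clock index it was -0.29 (SE 0.26, edgeR adjusted p = 0.653). Both covariates correlated with the group, and a part of blood or of clock genes in the Ampd3 result was not tested. Ampd3 overlaps Rnf141 on the opposite strand, which had 5186 reads against 535 for Ampd3, and since use of strand in counting is not given in the sources used here, its counts are uncertain.
Reads of Ampd3 per 1000 reads of Ampd1 were 6.93 ± 1.42 (SD, n = 11) for air and 5.44 ± 2.18 (SD, n = 13) for smoke. The ranges overlapped, from 4.10 to 9.16 in air and from 2.03 to 9.15 in smoke.

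Adssl1, the muscle adenylosuccinate synthetase that begins the return of IMP to AMP, was at 213 to 424 CPM in air (median 297) and 226 to 427 CPM in smoke (median 339). The groups covered almost the same range, and the lowest values in each belonged to air replicate 11 and smoke replicate 10. The log2 fold change was 0.02 (SE 0.092, 95% interval -0.17 to 0.21, edgeR adjusted p = 0.954). Its spread was wide for its level, with a biological coefficient of variation of 16.0% against a median of 9.90% over the 200 nearest genes, 188 of which had a smaller one. With the clock index as a covariate its log2 fold change was 0.33 (edgeR adjusted p = 0.137).

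**Figure D2:**
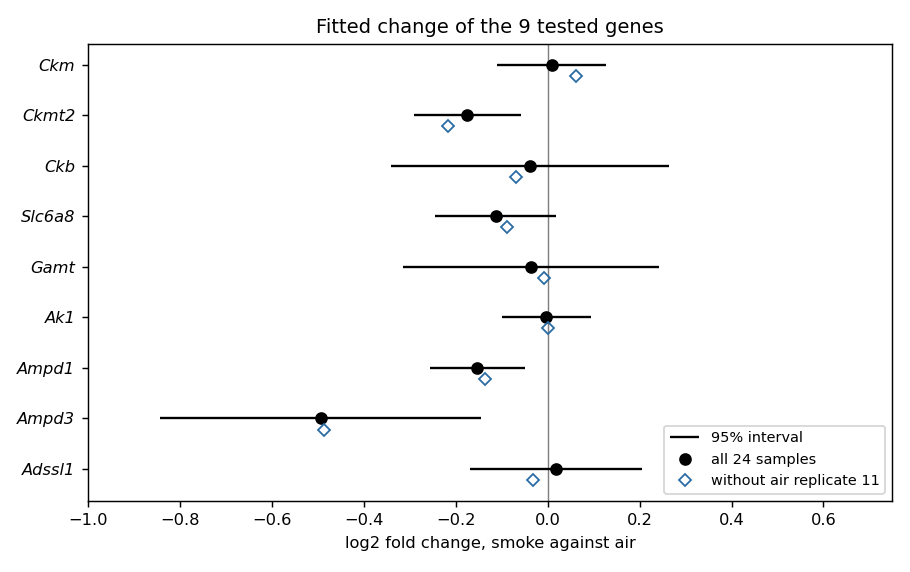
Fitted log2 fold change of smoke against air (x axis) for the 9 tested genes (y axis). Filled points and bars are estimates and 95% intervals from all 24 samples, and open diamonds are estimates without air replicate 11. The intervals of Ckmt2 (-0.29 to -0.06), Ampd1 (-0.26 to -0.05) and Ampd3 (-0.84 to -0.14) lie below 0 before adjustment over all tested genes, and the interval of Ckm runs from -0.11 to 0.13.

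The spread between samples was compared among the genes within each group, to ask whether they vary together. Over the 36 pairs of the 9 tested genes in each group, Pearson's r of log2 CPM ranged from -0.71 to 0.81 in air and from -0.51 to 0.63 in smoke. None of the 72 relations passed Benjamini-Hochberg adjustment (smallest adjusted permutation p of r 0.196, of rho 0.544), and 4 had an unadjusted permutation p of r under 0.05.
The strongest was between Ckmt2 and Adssl1 in air (n = 11), with r 0.81 (permutation p = 0.00272) and rho 0.69 (permutation p = 0.0239), falling to r 0.65 once the 2 samples most distant from the Ckmt2 median were removed. Between Ak1 and Adssl1 across the 13 smoke samples Pearson gave 0.63 (permutation p = 0.0228) and Spearman 0.59 (permutation p = 0.0376), with r 0.77 after such removal. Ckm and Ckmt2 in air had r -0.71 (permutation p = 0.0434) but rho -0.15 (permutation p = 0.673), and r was -0.02 without air replicate 11, so that this relation rested on that sample. Ckm and Ampd1 in air had r 0.60 (permutation p = 0.0306) and rho 0.60 (permutation p = 0.0562), with r 0.51 after such removal. With air replicate 11 and smoke replicate 10 left out, 0 of the 72 relations passed, the smallest adjusted permutation p of r being 0.635. Pearson's r was then 0.66 for Ckmt2 and Adssl1 in air (permutation p = 0.0399), 0.49 for Ak1 and Adssl1 in smoke (permutation p = 0.101) and 0.49 for Ckm and Ampd1 in air (permutation p = 0.148).

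**Figure D3:**
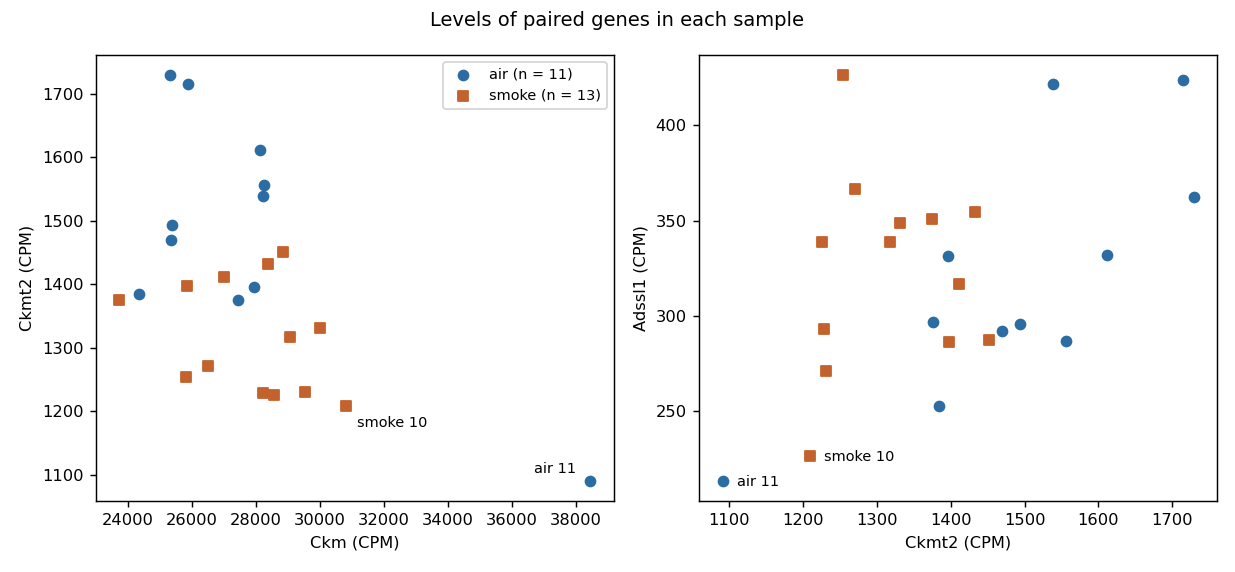
Ckmt2 against Ckm (left) and Adssl1 against Ckmt2 (right) in CPM on linear axes that do not start at 0, 1 point for each of 11 air (circles) and 13 smoke (squares) samples. Air 11 lies apart with Ckm at 38460 and Ckmt2 at 1091 CPM, and air 11 and smoke 10 have the lowest Adssl1 values, 213 and 226 CPM.

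Creatine kinase and adenylate genes are known to differ between fast and slow fibres, so each tested gene was also set against the summed level of the 8 slow fibre markers. Of the 18 relations within groups, 0 passed adjustment (smallest adjusted permutation p of r 0.999, of rho 0.819). Pearson's r ranged from -0.35 for Ckm to 0.49 for Ckb in air and from -0.43 for Adssl1 to 0.09 for Ckb in smoke. No relation had an unadjusted permutation p of r under 0.05, and the smallest, for Ckb in air, was 0.124.

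The other genes of these pathways were described from 6 lists that together named 81 genes, 60 of them tested. Of the 60, 1 was called higher and 1 lower, against 0.728% higher and 1.19% lower over all tested genes, and the median log2 fold change was 0.02. Nme1, a nucleoside diphosphate kinase that passes phosphate from ATP to other nucleotides, fell from 53.2 ± 7.77 CPM (SD, n = 11) to 42.3 ± 6.02 CPM (SD, n = 13), which is -0.33 on the log2 scale (SE 0.082, edgeR adjusted p = 0.0261). Every one of the 13 smoke samples lay under the air mean, and levels ranged from 42.4 to 65.1 CPM in air and from 30.9 to 51.9 CPM in smoke. Nme1 is similar in sequence to its neighbour Nme2, which had too few reads to be tested (143 against 3936 for Nme1). Both overlap the annotated gene Gm20390 on the same strand, to which 0 reads were counted. The split of reads between these genes is uncertain. The call was lost without air replicate 3 (edgeR adjusted p = 0.0520) and without air replicate 7 (edgeR adjusted p = 0.0549). It was also lost with the slow fibre level, the blood score and the clock index as covariates (edgeR adjusted p = 0.0535, 0.0889 and 0.122), where the log2 values of Nme1 were -0.33, -0.36 and -0.37.
Odc1, the ornithine decarboxylase that starts polyamine synthesis and draws on the arginine that also feeds creatine synthesis, rose from 23.9 ± 2.92 CPM (SD, n = 11) to 30.1 ± 5.26 CPM (SD, n = 13). Its fitted log2 change was 0.34 (SE 0.091, edgeR adjusted p = 0.0417), and 10 of 13 smoke samples were above the air mean. This call was lost in 17 of the 24 fits that each left out 1 sample, with edgeR adjusted p up to 0.0829, and in 6 of 12 other settings. These were limma voom (adjusted p = 0.0518), no expression filter (0.0656), both outlying libraries left out (0.0778), and the slow fibre (0.0614), blood (0.254) and clock (0.879) covariates in edgeR. With the clock index the log2 value of Odc1 was 0.06 in place of 0.34.

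**Figure D4:**
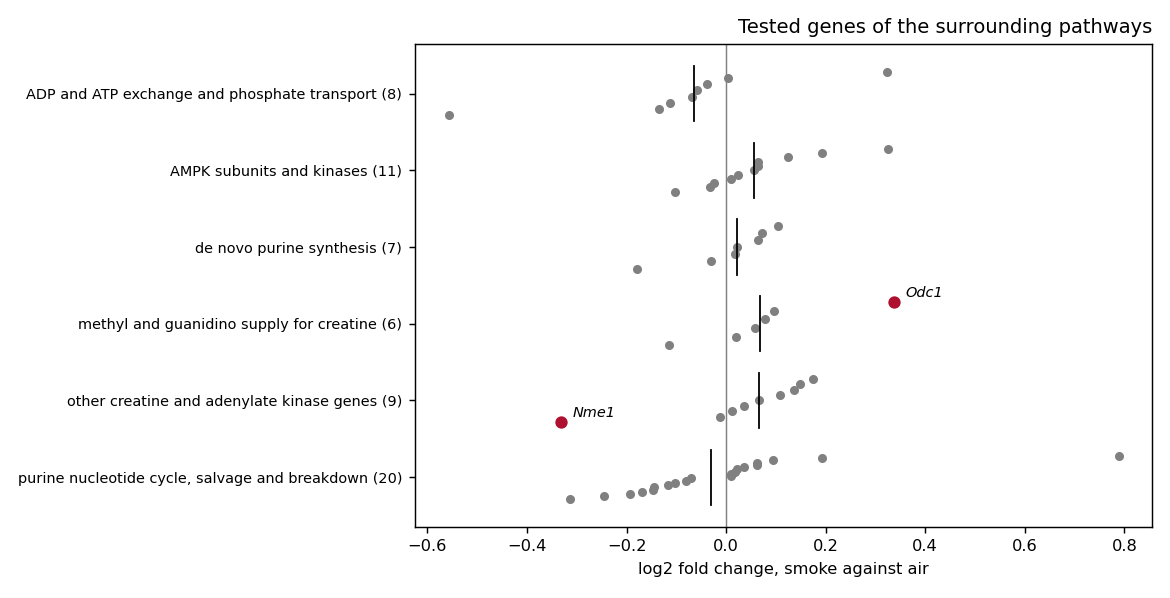
Log2 fold change of smoke against air (x axis) of each tested gene in 6 surrounding pathway lists (y axis, number of tested genes in brackets; Adsl stands in 2 lists). Points are genes, spread vertically only for legibility, vertical bars are list medians, and the coloured points with names are the called genes, Nme1 at -0.33 and Odc1 at 0.34.

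Among the other creatine and adenylate kinase genes, 9 of 17 were tested, 0 were called higher and 1 lower (Nme1), with a median log2 fold change of 0.07. The most abundant besides Nme1 were Slc6a6, the taurine transporter, at a log2 fold change of -0.01 (SE 0.12), and Ak3, the mitochondrial matrix GTP:AMP kinase, at 0.01 (SE 0.080). The ubiquitous mitochondrial creatine kinase gene Ckmt1 averaged 12.1 ± 3.48 CPM with air and 13.4 ± 4.06 CPM with smoke (SD, n = 11 and 13 here and for the means below). It was chosen for mention after its values were seen.
The list of the purine nucleotide cycle, salvage and breakdown had 20 of 27 genes tested and 0 called (1 at an unadjusted p under 0.05, and 1 called with DESeq2 and with limma voom, Ampd2), with a median of -0.03. Its most abundant genes were Nt5c3, a pyrimidine nucleotidase, at 109 ± 17.4 CPM for air and 101 ± 10.9 CPM for smoke, Gmpr, which reduces GMP to IMP, at 82.0 ± 9.27 and 82.4 ± 9.19 CPM, and Adsl, which completes the purine nucleotide cycle, at 47.2 ± 5.88 and 48.1 ± 4.81 CPM. Ampd2, the third AMP deaminase gene, averaged 2.41 ± 1.29 CPM with air and 4.33 ± 1.20 CPM with smoke, and its fitted log2 change of 0.79 missed the threshold (SE 0.23, edgeR adjusted p = 0.0632). Like Ckmt1, it was chosen after its values were seen. In 12 of 13 smoke samples it was above the air mean, which is opposite in sign to the fitted values of Ampd1 and Ampd3, and DESeq2 and limma voom gave adjusted p = 0.0329 and 0.0404. It was also called by edgeR with the surrogate variable and in 4 of the 24 fits that each left out 1 sample.
For de novo purine synthesis 7 of 8 genes were tested and 0 called (0 at an unadjusted p under 0.05 and 0 with DESeq2 or limma voom), with a median of 0.02. Prps1, which makes the ribose phosphate donor, averaged 78.2 ± 9.10 CPM with air and 76.5 ± 7.43 CPM with smoke, and Gart, which catalyses several steps of the route, at 50.3 ± 3.18 and 52.9 ± 7.65 CPM.

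AMPK, the kinase that senses the AMP these enzymes produce, was covered by a list of its subunits and upstream kinases. All 11 were tested, 0 were called (1 at an unadjusted p under 0.05 and 0 with DESeq2 or limma voom), and the median was 0.06. Prkab2, a scaffold subunit, averaged 634 ± 75.7 CPM with air and 692 ± 96.7 CPM with smoke, Prkaa2, a catalytic subunit, at 170 ± 10.9 and 173 ± 11.6 CPM, and Stk11, which encodes the activating kinase LKB1, at 137 ± 12.9 and 137 ± 11.7 CPM.
In the list for ADP and ATP exchange and phosphate transport 8 of 9 were tested and 0 called (2 at an unadjusted p under 0.05 and 0 with DESeq2 or limma voom), with a median of -0.06. Slc25a4, the ADP/ATP carrier of muscle mitochondria that works beside Ckmt2, averaged 9275 ± 813 CPM with air and 9028 ± 491 CPM with smoke (fitted log2 change -0.04, SE 0.048, edgeR adjusted p = 0.761). Vdac1, an outer membrane pore, stood at -0.06 on the log2 scale (SE 0.063, edgeR adjusted p = 0.716). Slc25a3, the mitochondrial phosphate carrier, stood at -0.11 (SE 0.049, edgeR adjusted p = 0.239), and without air replicate 11 it was -0.15 (edgeR adjusted p = 0.0450). With the clock index as a covariate the log2 value of Slc25a3 was -0.03 (edgeR adjusted p = 0.912). Slc20a1, a phosphate transporter of the cell membrane chosen after its values were seen, had the largest fitted difference of the list, from 28.8 ± 11.8 to 19.8 ± 7.31 CPM (log2 -0.56, SE 0.18, edgeR adjusted p = 0.0892). It passed without an expression filter (edgeR adjusted p = 0.0246), with the slow fibre covariate (0.0314) and without smoke replicate 4 (0.0235).
For the methyl and guanidino supply of creatine 6 of 10 were tested, 1 was called higher (Odc1) and 0 lower, and the median was 0.07. Mat2a, which makes the methyl donor used by Gamt, had a log2 fold change of 0.02 (SE 0.080), Oat, an ornithine aminotransferase, 0.06 (SE 0.082), and Ahcyl1 0.10 (SE 0.079). Oat overlaps Fgfr2, Slc6a6 overlaps Gm45828 and Adsl overlaps Gm6612, each on the same strand, and their counts are uncertain. Stk11 overlaps Cbarp, Mat2a overlaps Particl, Gmpr overlaps Atxn1, and Ak3 overlaps Cdc37l1, all on the opposite strand, so the counts of these 4 genes are uncertain where strand was not used.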

How the data were processed

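The authors deposited a table of unnormalised whole-number counts, with 1 row for each Ensembl gene. Per the labels' protocols, RNA from frozen plantaris was made into libraries with the QuantSeq 3′ forward kit. Per the submitters' processing notes, the tools STAR and DESeq2 and the build mm9 were named. The counting tool, annotation, strand setting and use of molecular identifiers are not given in the sources used here. Reads may include PCR copies, and the floor of 3 reads allows for counting error only. Standard errors and intervals come from the fitted spread between samples. Symbols came from GENCODE M21 and matched 99.1% of IDs. No column belonged to another sample.

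With edgeR 4.0.16 in R 4.3.3, genes passing filterByExpr (minimum count 10) were scaled by TMM and tested on all 24 samples without covariates, by the quasi-likelihood F-test with Benjamini-Hochberg adjustment over all tested genes. Standard errors and 95% intervals were derived from the F statistic. CPM values used the TMM-scaled libraries. Gatm was tested by permuting samples (100000 resamples, two-sided). Correlations used log2 CPM (prior count 2) with 100000 permutations. The procedure was tested on simulated data.

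Alternatives were RLE and upper-quartile scaling, library totals without the 10 most abundant genes, DESeq2 1.42.0, limma 3.58.1 voom, no filter, the replicate block, 1 surrogate variable (sva 3.50.0), slow fibre, blood and clock covariates, other prior counts, and leaving out each sample. The slow fibre level, blood score and clock index correlated with the group at r -0.36, -0.56 and 0.73. Fits with these covariates cannot fully separate them from smoke. The genes and lists were chosen with earlier results of these data known. Named were the 10 genes, every called gene of a pathway list and the 3 most abundant tested genes of each list. Ckmt1, Ampd2 and Slc20a1 fall outside this rule and were chosen after their values were seen. The listed symbol Pnp had no match. The result of 1 other marker list is not reported here.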

Additional observations from a re-analysis of the deposited data

How the results depend on the processing

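The 195 called genes became 323 with DESeq2, 436 with 1 surrogate variable, 124 with the slow fibre level, 56 with the blood score and 69 with the clock index as a covariate, and the cause was not tested. Of the 9 tested creatine kinase and adenylate genes, 1 was called, in each case Ckmt2, with the surrogate variable and with air replicate 11 and smoke replicate 10 left out, against 0 with the others. Of the 60 tested pathway genes, 2 were called, against 4 with the surrogate variable (Ampd2, Nme1, Odc1 and Slc20a2), 1 with the slow fibre level (Slc20a1), 1 with both outlying libraries left out (Nme1), and 0 with the blood score or the clock index. Leaving out each sample gave 141 to 254 called genes, 0 to 1 of the 9, and 0 to 2 of the pathway genes.

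Replicate numbers occur in both groups, but nothing in the labels says that they pair samples. Deviations of 11 same-numbered pairs correlated at a mean r of -0.0059, against 0.0011 over 132 other pairs, and 2 of the 11 air samples correlated best with their own number. With the replicate block, over 22 samples, 138 genes were called, 0 of the 9 and 2 pathway genes.

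Some log2 fold changes near 0 changed sign, none of them called on either side. This happened for Ckm without a filter (-0.0015), for Stk11 (-0.011), Slc6a6 (0.014) and Gmpr (-0.028) under the replicate block, and with the slow fibre level for Ckm (-0.021), Ckb (0.053), Adssl1 (-0.019), Mat2a (-0.010) and Gmpr (-0.00137). It happened with the blood score for Ak1 (0.014), Adssl1 (-0.0052), Stk11 (-0.013) and Gmpr (-0.00609). With the clock index the values were -0.16 for Ckm, 0.079 for Ckb, 0.062 for Ak1, 0.035 for Slc25a4, 0.041 for Vdac1, -0.073 for Stk11, -0.019 for Adsl, -0.031 for Mat2a, 0.19 for Slc6a6, -0.10 for Ak3, 0.031 for Nt5c3 and -0.064 for Gmpr. With air replicate 11 and smoke replicate 10 left out they were 0.018 for Ak1, -0.000781 for Adsl and -0.00974 for Ak3. In leave-one-out fits the range crossed 0 for Ckm (-0.011 to 0.063), Ckb (-0.15 to 0.033), Gamt (-0.087 to 0.036), Ak1 (-0.023 to 0.011), Adssl1 (-0.032 to 0.065), Stk11 (-0.0132 to 0.0254), Adsl (-0.00822 to 0.0531), Mat2a (-0.0193 to 0.0764), Slc6a6 (-0.0837 to 0.0256), Ak3 (-0.0379 to 0.0413) and Gmpr (-0.0223 to 0.0380).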
